A study of Homo sapiens with 18 samples.

Results

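The 6 clusters of KRAB zinc finger genes on human chromosome 19 were examined for the repressive histone mark H3K9me3 in NB4 cells, an established cell line from acute promyelocytic leukemia (APL). H3K9me3 peaks of 6 libraries on chromosome 19 were joined into 1 region wherever they shared 1 bp or more. The members are the 436 merged regions that overlap a cluster, out of 1093 on the chromosome and 46996 in the genome, and 2 of them cross a cluster border. In order along the chromosome (hg19), cluster 1 lay at 11.7 to 12.8 Mb, cluster 2 at 19.8 to 24.5 Mb and cluster 3 at 36.6 to 38.4 Mb. Cluster 4 lay at 44.3 to 44.9 Mb, cluster 5 at 52.4 to 53.9 Mb and cluster 6 at 56.8 to 59.1 Mb. Together they span 12 Mb, and the remaining 657 merged regions served as the comparison on the same chromosome.

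KRAB zinc finger proteins bind DNA through arrays of zinc fingers, mostly at transposable elements, and recruit the corepressor TRIM28. TRIM28 in turn brings in SETDB1, the methyltransferase that places H3K9me3. Their genes multiplied by tandem duplication, and the gene bodies themselves carry H3K9me3 in many human cell types while their promoters often stay active. By name, 262 of the 563 protein-coding genes with a ZNF, ZFP or ZSCAN symbol in RefSeq (GRCh38.p14) are on chromosome 19, and 212 of these stand in 19 runs of at least 5 neighbours. The longest run, from ZNF737 to ZNF681, has 27 genes and includes ZNF91, a known repressor of SVA retrotransposons, and ZNF43. Others run from ZNF627 to ZNF791 (24 genes), ZNF565 to ZNF793 (24), ZNF283 to ZNF180 (20) and ZNF530 to ZNF256 (16). The runs were taken from the gene order of the whole chromosome and were not matched to the clusters, so some may lie in the rest of it. No peak was assigned to a gene.

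Cells were left untreated or were given 10 µM maltonis, a synthetic derivative of maltol, for 24 h. Chromatin immunoprecipitation and sequencing (ChIP-seq) was done for H3K9me3, for H3K4me3, which marks active promoters, and for H3K27ac, which marks active promoters and enhancers. Each mark had 3 libraries per condition, so 18 in all, and peaks had been called in each library separately. All cells came from 1 line. The study describes the 3 replicates as biological without saying how they were grown apart, and p-values measure the spread between these libraries.

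H3K9me3 lists held between 2595814 and 3366296 reads in peaks, and H3K27ac lists between 17974940 and 20773316. The H3K4me3 lists hold no read counts. Maltonis replicate 3 had the fewest H3K9me3 reads, and results that rest on it are given with and without it. Extents are those called in each list and were not scaled. Shares and scaled read counts cannot show a change common to the whole genome. Nor can fewer cells with a mark and less of it per cell be told apart.

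H3K9me3 was dense in the zinc finger clusters. Peaks covered 35.0, 36.6 and 36.9% of the cluster bases in the untreated libraries and 36.2, 35.3 and 32.2% in the maltonis libraries. In the rest of the chromosome the values were 12.07, 11.89 and 11.96% before and 13.38, 12.81 and 12.03% after treatment. Every library had its cluster value far above its value for the rest, without overlap. The mean difference was 23 ± 1.74 percentage points (SD, n = 6), higher in 6 of 6 libraries (exact sign-flip permutation test, two-sided, p = 0.03125, the smallest that 6 libraries allow). The cover of the clusters was 2.67 to 3.08 times that of the rest.

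Peaks in the clusters were more numerous and somewhat wider. There were 41.8 ± 2.60 H3K9me3 peaks per Mb in the clusters and 16.3 ± 1.47 in the rest (SD, n = 6). The median peak was 5517 ± 492 bp wide in the clusters and 4600 ± 490 bp in the rest (SD, n = 6). Reads were sparser within the cluster peaks, with 20.3 ± 0.629 per kb of peak against 22.9 ± 0.558 (SD, n = 6). Each of these 3 differences had the same direction in 6 of 6 libraries (exact sign-flip permutation test, p = 0.03125 each). All 11 quantities compared between clusters and rest had this p, so Benjamini-Hochberg adjustment over them could not change it.

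The clusters differed from each other. Cluster 5 had the highest mean cover, 49.3% ± 0.304 in untreated cells (SD, n = 3), followed by cluster 1 with 45.3% ± 1.13, cluster 2 with 41.2% ± 1.25 and cluster 3 with 31.6% ± 1.80. Clusters 4 and 6 were lowest, with 21.6% ± 1.75 and 20.4% ± 0.963 (SD for n = 3 each). Over all 6 libraries, the ranges of clusters 5 and 1, of clusters 1 and 2, and of clusters 4 and 6 overlapped. Cluster 3 overlapped neither cluster 2 above it nor cluster 4 below it. Each cluster, in each library, had more cover than the rest of the chromosome.

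**Figure D1:**
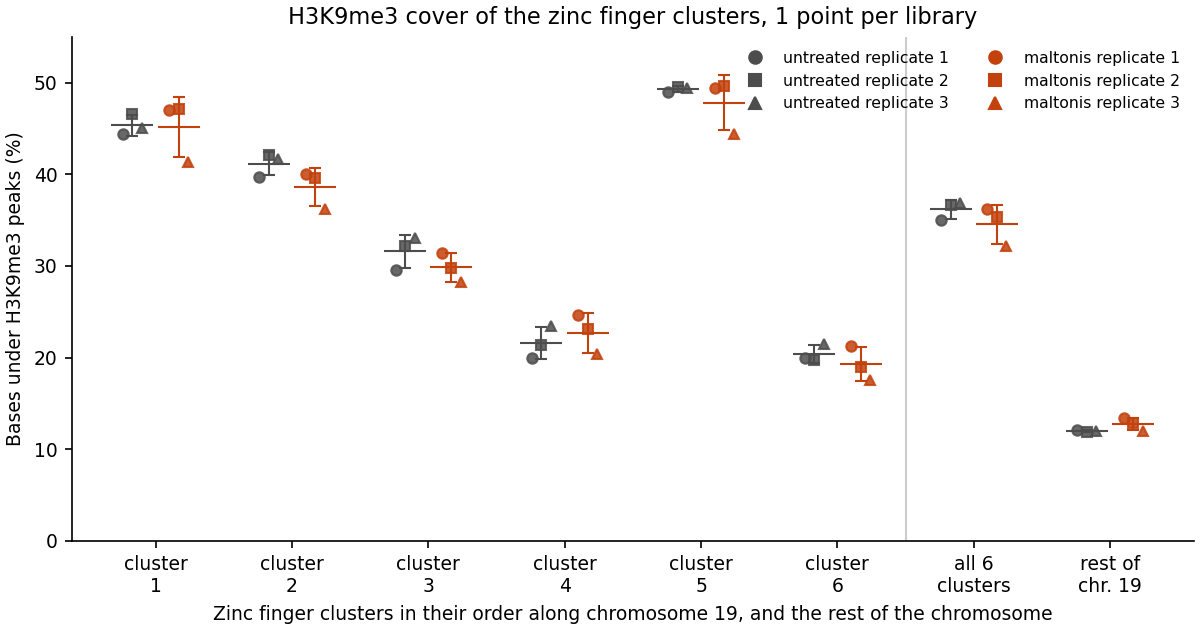
Bases under H3K9me3 peaks, in percent of each zinc finger cluster, of all 6 clusters and of the rest of chromosome 19, with 1 point per library and the mean and SD of 3 libraries per condition. All clusters lie above the rest of the chromosome, where the libraries sit between 11.9 and 13.4%, and untreated and maltonis libraries overlap in every cluster.

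Most of the mark in the clusters lay in regions found every time. Of the 436 members, 209 (47.9%) were called in all 6 libraries, against 36.8% of the other chromosome 19 regions and 30.3% of all merged H3K9me3 regions. These 209 had a median merged width of 17200 bp and held 93.4 to 95.8% of the member reads of each library. Reads are known only where a library called a peak. Over the genome, regions called in all 6 libraries held 2520143 of 3366296 reads in peaks in untreated replicate 3. In maltonis replicate 3 they held 2088058 of 2595814. A further 91 members were called in 1 library only and had a median width of 3400 bp. The remaining 136 were called in 2 to 5 libraries. The share called in all 6 libraries was highest in cluster 1, at 31 of 43 members, and lowest in cluster 2, at 80 of 190.

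The strongest member of each cluster, by reads, was a broad domain. In cluster 2 it spanned chromosome 19 from 24381401 to 24580800 and crossed the border of the cluster. This domain of 199400 bp, the widest of all members, lies at the end of the cluster that faces the centromere. It held 5983, 6197 and 6384 reads in untreated and 5687, 5781 and 5060 in maltonis libraries, which do not overlap before scaling for library size. After scaling its log2 fold change was -0.05 (SE 0.04, edgeR quasi-likelihood test, Benjamini-Hochberg adjusted p = 0.595). It had an H3K4me3 peak in 0 untreated and 2 maltonis libraries and no H3K27ac peak in any library.

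The next in width both belong to cluster 5. The domain from 52551401 to 52668800 (117400 bp) held 2745, 2702 and 2876 reads in untreated and 2695, 2619 and 2363 in maltonis libraries. Its log2 fold change was 0.00 (SE 0.04). The domain from 52432401 to 52532200 (99800 bp) held 2051 ± 91.1 and 1842 ± 221 reads (SD for n = 3 each), with a log2 fold change of -0.04 (SE 0.06). Unlike the widest domain, both contained H3K4me3 and H3K27ac peaks in each library.

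Elsewhere the strongest members were narrower. They spanned 12615601 to 12663200 in cluster 1, 37194201 to 37263200 in cluster 3, 44448601 to 44488200 in cluster 4 and 58668801 to 58728200 in cluster 6, with widths of 39600 to 69000 bp. Their mean reads over all libraries were 1122, 1158, 562 and 1131. Log2 fold changes after maltonis were 0.00, 0.06, 0.13 and 0.07 (SE 0.06, 0.06, 0.10 and 0.06), with adjusted p of 0.646 or more (edgeR, Benjamini-Hochberg). Each had H3K4me3 and H3K27ac peaks inside it in all 6 libraries of either mark.

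**Figure D2:**
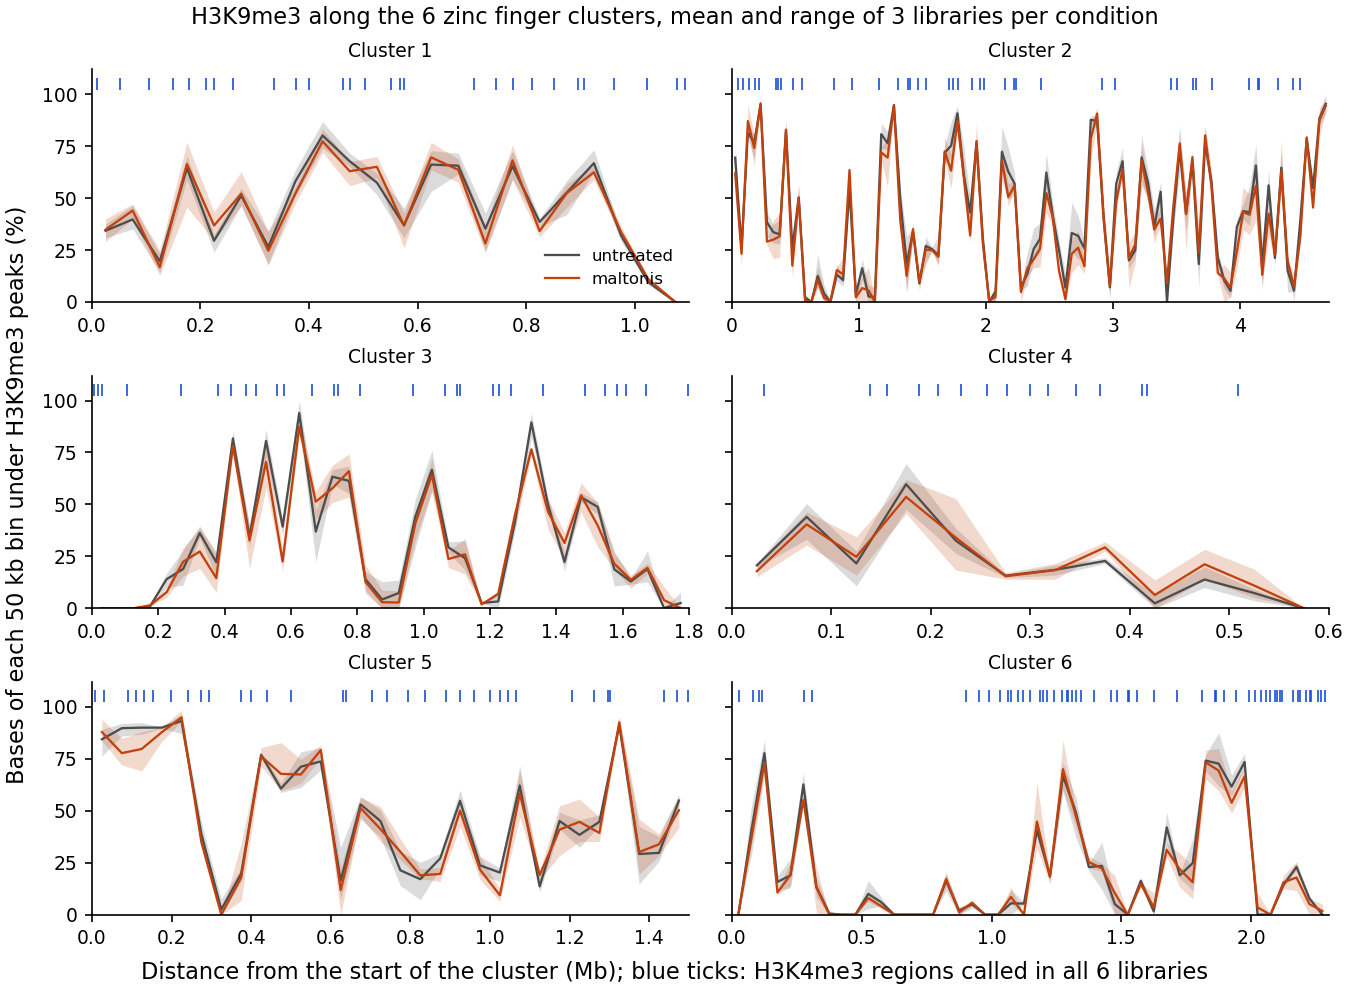
H3K9me3 cover of 50 kb bins along each zinc finger cluster, in percent against the distance from the cluster start in Mb, as the mean (line) and range (band) of 3 libraries per condition. Blue ticks mark H3K4me3 regions called in all 6 libraries. Cover alternates between peaks of up to 95.3% and bins with none, and the lines of both conditions follow the same course.

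The clusters also held regions with active marks. The clusters held 214 merged H3K4me3 regions, of which 203 (94.9%) were called in all 6 libraries, against 58.8% in the rest of the chromosome and 46.1% of all H3K4me3 regions. They held 210 merged H3K27ac regions, of which 194 (92.4%) were called in all 6, against 68.5% in the rest and 54.2% of all. Of the 203 constant H3K4me3 regions, 198 (97.5%) had H3K27ac in all 6 libraries, close to the 98.1% of the 670 in the rest. Of the 194 constant H3K27ac regions, 192 (99.0%) lay on H3K4me3, while 78.5% did in the rest.

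H3K9me3 dipped at the H3K4me3 regions. At the centres of the 203 constant H3K4me3 regions of the clusters, 18.7 to 26.6% had H3K9me3, depending on the library. At 10 kb to either side 33.5 to 39.9% did, and at 20 kb 34.7 to 42.9%. From the centre to 10 kb the cover rose by 15.0 percentage points on average, in 6 of 6 libraries (exact sign-flip permutation test, p = 0.03125, adjusted p = 0.0341 over 12 such tests). In the rest of chromosome 19 the course was the opposite. There, 19.3 to 22.2% of the 670 centres had H3K9me3 and 13.96 to 15.22% of the positions at 10 kb, a change of -5.78 points, with a fall in 6 of 6 libraries (exact sign-flip permutation test, p = 0.03125, adjusted p = 0.0341).

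At the centres themselves, clusters and rest could not be separated for H3K9me3. The difference was 1.48 points and positive in 4 of 6 libraries (exact sign-flip permutation test, p = 0.34375). At 2 kb it had grown to 11.4 points, at 5 kb to 16.4 and at 20 kb to 25.4, each positive in 6 of 6 libraries (exact sign-flip permutation test, p = 0.03125 each). H3K27ac went the other way, with 44.8 points less cover in the clusters at 2 kb and 29.9 points less at 10 kb, each in 6 of 6 libraries (exact sign-flip permutation test, p = 0.03125). Acetylated regions of the clusters were short, with median called lengths of 2600, 2600 and 2800 bp in the untreated libraries against 5400, 5500 and 5600 bp in the rest.

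H3K4me3 regions free of H3K9me3 were unevenly spread over the clusters. Of the 203 constant H3K4me3 regions, 93 (45.8%) overlapped no H3K9me3 peak in any library and 33 (16.3%) overlapped one in all 6. Cluster 2 had the fewest free regions, 7 of 41, and 14 of 41 overlapped H3K9me3 in every library. In cluster 3, 21 of 29 were free and 0 overlapped H3K9me3 in every library. In the rest of the chromosome 69.6% were free and 17.2% overlapped H3K9me3 in all 6 libraries.

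**Figure D3:**
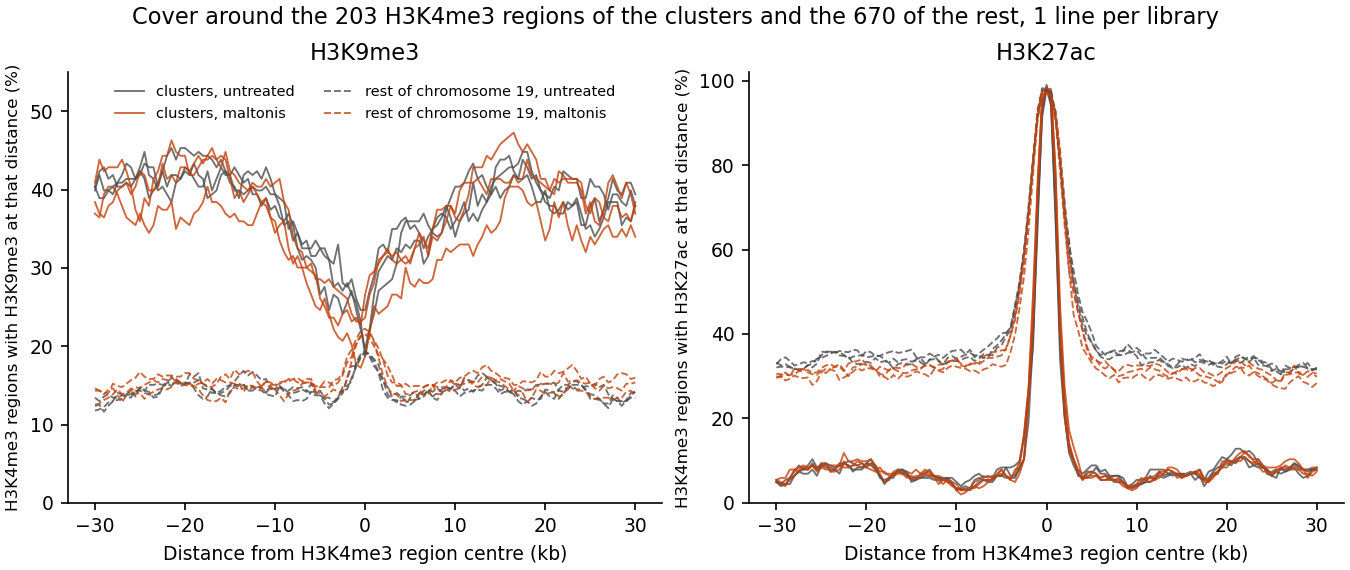
Share of H3K4me3 regions, in percent, that carry H3K9me3 (left) or H3K27ac (right) at each distance in kb from their centre, with 1 line per library, solid for the 203 regions of the zinc finger clusters and dashed for the 670 of the rest of chromosome 19. In the clusters H3K9me3 dips at the centre and H3K27ac is a narrow peak, while in the rest H3K9me3 has a small maximum at the centre and H3K27ac a broad base.

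The next question was whether maltonis changed H3K9me3 in the clusters. The covered share was 36.2% ± 1.01 in untreated and 34.5% ± 2.11 in maltonis libraries (SD for n = 3 each), and the conditions overlapped (exact permutation test, p = 0.3). No comparison of 3 with 3 libraries can give p below 0.1, so it is stated instead whether the conditions overlap. The difference of -1.62 points came mostly from maltonis replicate 3 and was -0.432 points without it. The conditions overlapped in each of the 6 clusters too (exact permutation tests, p between 0.2 and 1, adjusted p between 0.75 and 1).

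The number of H3K9me3 peaks in the clusters was 532, 533 and 521 in untreated and 459, 478 and 487 in maltonis libraries. All maltonis libraries lay below all untreated ones, with means of 529 ± 6.66 and 475 ± 14.3 (exact permutation test, p = 0.1; SD for n = 3 each). With the same number of peaks taken from each list, the clusters held 1.33 more peaks after maltonis and the conditions overlapped (exact permutation test, p = 0.9). The rest of the chromosome also had fewer peaks, 763 ± 17.3 against 663 ± 49.9 (exact permutation test, p = 0.1; SD for n = 3 each). Median peak width in the clusters was 5167 ± 252 bp and 5867 ± 416 bp, with overlap (exact permutation test, p = 0.2; SD for n = 3 each).

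The clusters and the rest of the chromosome did not move together. Of all chromosome 19 bases under H3K9me3 peaks, 44.4, 45.8 and 45.9% lay in the clusters in untreated libraries and 42.6, 43.1 and 42.4% in maltonis libraries. All maltonis libraries were below all untreated ones, and the mean was 2.66 points lower (exact permutation test, p = 0.1). The direction and the separation of the conditions held in all alternatives run, and without maltonis replicate 3 the difference was -2.49 points. Among reads, 43.7% ± 1.37 of those in chromosome 19 peaks lay in the clusters before and 40.1% ± 0.389 after treatment, again apart (exact permutation test, p = 0.1; SD for n = 3 each).

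As a share of all reads in peaks, the rest of the chromosome separated the conditions and the clusters together did not. Of all H3K9me3 reads in peaks of a library, the clusters took 2.79% ± 0.0571 in untreated and 2.85% ± 0.0568 in maltonis libraries, which overlapped (exact permutation test, p = 0.3; SD for n = 3 each). Single clusters did separate the conditions in 2 cases, with a share of 0.335% ± 0.00609 before and 0.344% ± 0.00401 after treatment in cluster 1, and 0.0683% ± 0.00266 and 0.0786% ± 0.00125 in cluster 4 (exact permutation test, p = 0.1 each, adjusted p = 0.3 over the 6 clusters; SD for n = 3 each). The rest of chromosome 19 took 3.59% ± 0.128 and 4.26% ± 0.155, with all maltonis libraries above all untreated ones (exact permutation test, p = 0.1; SD for n = 3 each). Its cover did overlap between conditions, with 12.07% in untreated replicate 1 and 12.03% in maltonis replicate 3. Its unscaled reads were 116682, 118472 and 116607 before and 135216, 129819 and 115109 after treatment, also with overlap.

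**Figure D4:**
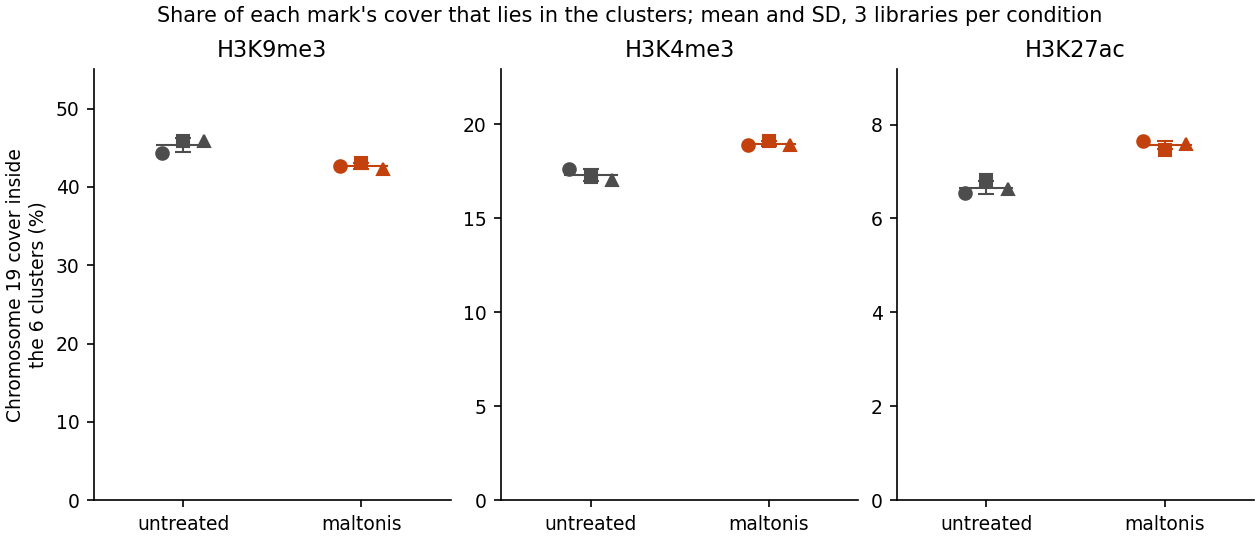
Share of the chromosome 19 bases under peaks that lie inside the 6 zinc finger clusters, in percent, for each mark, with 1 point per library and the mean and SD of 3 libraries per condition. The share is lower after maltonis for H3K9me3 and higher for H3K4me3 and H3K27ac, with no overlap between conditions for any mark.

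Single members were then compared by their reads. Of the 209 members called in all 6 libraries, 0 passed an adjusted p of at most 0.01 with an absolute log2 fold change of at least 0.58 (edgeR quasi-likelihood test, Benjamini-Hochberg adjustment over 14226 regions). Among all regions 0.253% passed as higher and 0.0141% as lower. DESeq2 called 0 members as well, beside 0.907% of all regions higher and 0.253% lower. With the called length as an offset edgeR also called 0, beside 0.119% higher and 0.0422% lower. At an unadjusted p under 0.05 there were 22 members, 13 higher and 9 lower, which is 10.5% beside 14.1% of all regions tested. The median log2 fold change was 0.03 over the members and 0.00 over all regions, with a median SE of 0.16 per member. In the rest of the chromosome the median was 0.16, and 7 of 242 regions passed as higher and 0 as lower. Those 7 were not stable, with 14 in DESeq2, 0 with the length offset, 0 without untreated replicate 3, maltonis replicate 1 or maltonis replicate 2, and 1 without maltonis replicate 3. Without untreated replicate 2 there were 3. With the offset the median was 0.10 in the rest and 0.05 over the members.

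Of the 7 regions outside the clusters with more reads, 6 lay on H3K4me3. Outside the clusters, regions on H3K4me3 had a median log2 fold change of 0.29 (n = 96) and those off it 0.06 (n = 146). In the clusters the medians were 0.01 on H3K4me3 (n = 74) and 0.06 off it (n = 135). With the length offset they were 0.15 and 0.06 outside, and 0.05 and 0.05 inside. Whether these medians differ was not tested.

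The members with the smallest unadjusted p were chosen after their values were seen. The region from 22352801 to 22370200 in cluster 2 had 182, 184 and 248 reads in untreated and 123, 137 and 94 in maltonis libraries, without overlap. Its log2 fold change was -0.68 (SE 0.18, edgeR quasi-likelihood test, Benjamini-Hochberg adjusted p = 0.103). The length called in it averaged 12400 bp before and 7467 bp after treatment. Taking that length as an offset gave a log2 fold change of 0.03. In cluster 3, the region from 37178201 to 37188600 had 121 ± 25.7 reads before and 61.7 ± 10.1 after treatment (SD for n = 3 each), with a log2 fold change of -0.86 (SE 0.25, edgeR adjusted p = 0.134), or 0.18 with the offset. In cluster 5, the region from 53606001 to 53617200 had 49.0 ± 8.72 and 91.3 ± 38.4 reads (SD for n = 3 each), with a log2 fold change of 0.99 (SE 0.30, edgeR adjusted p = 0.148), or 0.10 with the offset.

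Members found in 1 condition only were few and weak. Called in all 3 untreated and no maltonis libraries were 4 of 436 members (0.917%), beside 2.32% of all H3K9me3 regions and 2.59% in the rest of the chromosome. Called in all 3 maltonis and no untreated libraries were 0, beside 0.781% of all and 1.98% in the rest. The strongest of the 4 spanned 57048801 to 57056800 in cluster 6 and held 82, 57 and 71 reads in the untreated libraries. It was followed by 59014401 to 59022000, with 52.0 ± 14.5 reads, and 57913201 to 57916400, with 40.3 ± 3.06 reads (SD for n = 3 each), both in cluster 6. The last, from 22777601 to 22779800 in cluster 2, had 31.7 ± 4.73 reads (SD, n = 3) and is named although it falls outside the first 3. The count of such members was 1 with equal numbers of peaks per list, and between 6 and 15 with 1 library fewer, with 15 in the absence of maltonis replicate 1.

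The median called length of H3K9me3 members did not separate the conditions. Among the 209 members called in all libraries, 5 (2.39%) were longer in every maltonis than in any untreated library and 15 (7.18%) shorter. These shares were 5.35% and 5.48% over all regions, and 15.3% and 4.96% in the rest of the chromosome. The median over the members was 12067 ± 757 bp before and 12000 ± 917 bp after treatment (SD for n = 3 each), with overlap (exact permutation test, p = 1).

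H3K4me3 regions in the clusters were nearly all called in every library, and they became wider. There were 208, 206 and 206 peaks in untreated and 205, 204 and 204 in maltonis libraries, and 0 of 214 merged regions was specific to a condition, beside 1.66% untreated only and 0.836% maltonis only among all regions. Covered bases were 2.23, 2.14 and 2.15% of the clusters before and 2.48, 2.56 and 2.52% after treatment. The conditions did not overlap, and the mean rose by 0.347 points, or 16.0% of its untreated value (exact permutation test, p = 0.1). Over the rest of the chromosome the cover rose from 2.86% ± 0.0189 to 2.96% ± 0.0282 (exact permutation test, p = 0.1; SD for n = 3 each), which was 3.67%.

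The clusters took a larger part of chromosome 19 H3K4me3. Their share of the covered bases was 17.64, 17.20 and 17.04% in untreated and 18.9, 19.1 and 18.9% in maltonis libraries, without overlap and 1.66 points higher on average (exact permutation test, p = 0.1). The number of peaks fell without overlap both inside, from 207 ± 1.15 to 204 ± 0.577, and outside the clusters, from 889 ± 8.08 to 797 ± 8.50 (exact permutation test, p = 0.1 each; SD for n = 3 each). That was a change of -1.13% inside and -10.3% outside. Cover rose without overlap in each of the 6 clusters, by 11.7% of its untreated value in cluster 3 up to 20.2% in cluster 1 (exact permutation test, p = 0.1 and adjusted p = 0.1 in each).

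Single H3K4me3 regions were compared by length. Of the 203 regions called in all 6 libraries, 117 (57.6%) were longer in every maltonis than in any untreated library and 6 (2.96%) shorter, beside 54.8% and 3.99% of all H3K4me3 regions. The median length was 1161 ± 23.4 bp before and 1381 ± 29.8 bp after treatment (SD for n = 3 each), without overlap (exact permutation test, p = 0.1). In proportion to the rest of the chromosome it was 0.823 before and 0.854 after, also apart (exact permutation test, p = 0.1). Over all H3K4me3 peaks, and not only regions called in all libraries, the ratio of median widths was 0.908 before and 0.903 after, with overlap (exact permutation test, p = 0.7). The share of widened regions in the clusters was near that of the genome.

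The H3K4me3 regions named next were picked after their values were seen. The largest ratio of mean lengths, 2.39, belonged to the region from 22710245 to 22716073 in cluster 2, with 1522, 1522 and 1485 bp in untreated and 1497, 3573 and 5738 bp in maltonis libraries, which overlap. It met H3K9me3 in 1 untreated and 2 maltonis libraries. The smallest ratio, 0.747, belonged to 38182517 to 38183713 in cluster 3, with 825, 909 and 812 bp before and 893, 595 and 414 bp after treatment, also with overlap. Other regions moved without overlap. The H3K4me3 region from 58978091 to 58979879 in cluster 6 was 967, 1081 and 1014 bp long in untreated and 1780, 1655 and 1731 bp in maltonis libraries, while its highest fold enrichment, as given by the caller, went from 7.12 to 4.71 on average. Another in cluster 6, from 58815773 to 58817877, was 1195 bp long before and 1986 bp after treatment on average, with fold enrichments of 7.03 and 4.32. The region from 20162450 to 20163973 in cluster 2 shortened, with 1340, 1524 and 1304 bp in untreated and 1135, 1154 and 1005 bp in maltonis libraries. Mean fold enrichments were lower after treatment in these 5 picked examples, with overlap between conditions at 22710245. Fold enrichments were not compared over all H3K4me3 regions.

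H3K27ac cover of the 6 clusters combined did not separate the conditions, while single clusters moved in both directions. Cover was 5.57% ± 0.219 of the clusters in untreated and 5.76% ± 0.196 in maltonis libraries, with overlap (exact permutation test, p = 0.4; SD for n = 3 each). It rose without overlap from 8.30% ± 0.364 to 9.87% ± 0.382 in cluster 1 and from 7.21% ± 0.454 to 8.20% ± 0.377 in cluster 5, and fell without overlap from 3.17% ± 0.0869 to 3.00% ± 0.0701 in cluster 2 (exact permutation test, p = 0.1 each, adjusted p = 0.2 over the 6 clusters; SD for n = 3 each). Clusters 3, 4 and 6 overlapped. Elsewhere on chromosome 19 it went from 21.4% ± 0.366 to 19.3% ± 0.606, with all maltonis libraries lower (exact permutation test, p = 0.1; SD for n = 3 each). The clusters held 6.54, 6.81 and 6.63% of the chromosome 19 bases under H3K27ac in untreated and 7.65, 7.47 and 7.59% in maltonis libraries. The conditions were apart, with a mean difference of 0.909 points (exact permutation test, p = 0.1). Peak numbers were 208 ± 5.03 and 209 ± 2.00 (exact permutation test, p = 0.9; SD for n = 3 each).

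Reads in cluster H3K27ac peaks rose relative to all H3K27ac reads in peaks. The clusters took 0.447, 0.437 and 0.434% of all H3K27ac reads in peaks before and 0.542, 0.538 and 0.546% after treatment. The conditions were far apart compared with their spread, and the mean rose by 0.102 points, or 23.2% of its untreated value (exact permutation test, p = 0.1). Each of the 6 clusters separated the conditions, from a rise of 10.9% in cluster 6 to 44.6% in cluster 1 (exact permutation test, p = 0.1 and adjusted p = 0.1 in each). For the remainder of the chromosome the share rose by 2.84%, from 5.08% ± 0.0445 to 5.22% ± 0.0192 (exact permutation test, p = 0.1; SD for n = 3 each). Reads per kb of peak, not scaled for library size, rose by 15.4% on average in the clusters. They were 135, 128 and 132 in untreated and 136, 162 and 157 in maltonis libraries. On the other autosomes, where less length was called after treatment, they rose by 21.6%.

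By region, 35 of the 194 constant H3K27ac regions of the clusters (18.04%) had more reads after maltonis and 3 (1.55%) fewer, beside 8.18% and 19.2% of all H3K27ac regions (edgeR quasi-likelihood test, Benjamini-Hochberg adjustment over 20018 regions). The median log2 fold change was 0.34 in the clusters, 0.06 in the rest of the chromosome and -0.01 over all regions. Among regions on H3K4me3 only, 18.2% rose and 1.04% fell in the clusters (n = 192), 8.80% and 10.2% in the rest (n = 625), and 9.24% and 13.6% in the genome (n = 13133). The rises were most frequent in clusters 1, with 12 of 28 regions, and 5, with 11 of 33, and least in cluster 2, with 2 of 40.

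These counts moved with the length called. With the called length of each library as an offset, 0 cluster regions rose and 3 fell, beside 2.13% and 4.58% of all, and the median log2 fold change was 0.06. Among the 17 cluster regions of similar length in all libraries, 1 rose and 0 fell, beside 2.09% and 3.59% of the 1338 in the genome. The median log2 fold change of the 17 was 0.24, beside -0.06 in the rest of the chromosome (n = 77) and 0.00 in the genome. Of the 17, 13 (76.5%) were above 0, beside 39.0% in the rest and 50.7% in the genome. The lengths themselves rose in 23 cluster regions (11.9%) without overlap and fell in 8 (4.12%), beside 3.84% and 28.2% of all H3K27ac regions. Relative to the rest of the chromosome, the median called length went from 0.485 to 0.589, apart in all libraries (exact permutation test, p = 0.1).

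**Figure D5:**
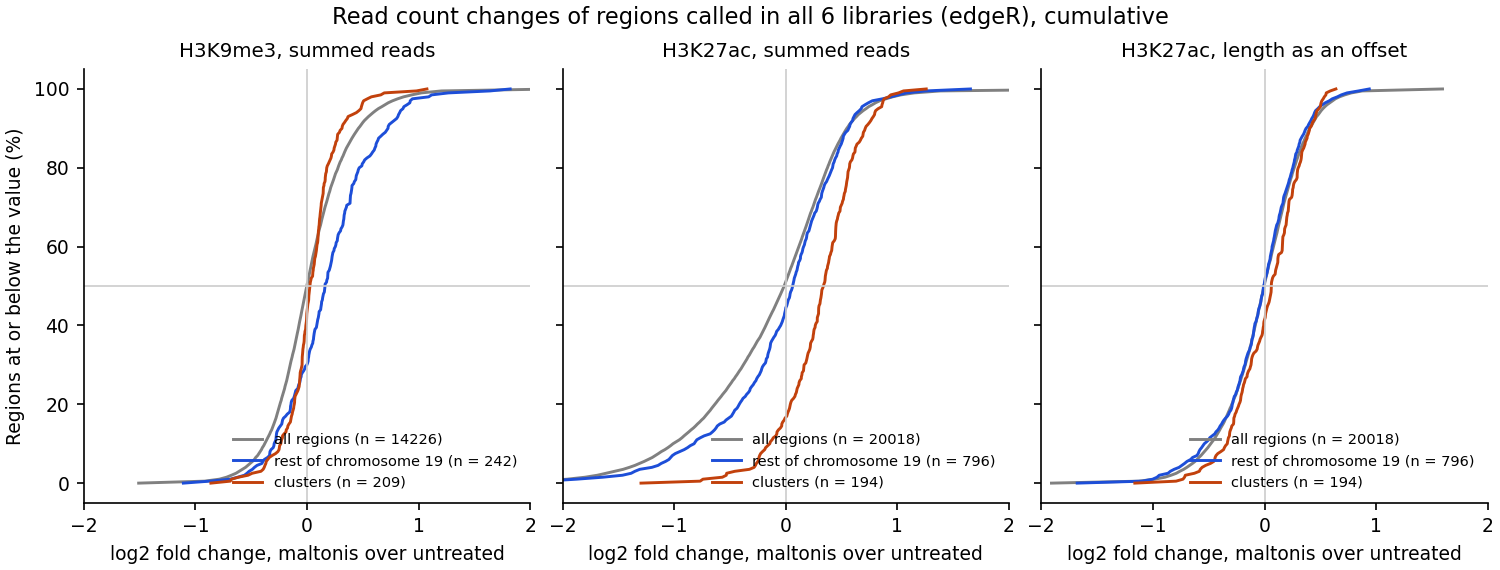
Cumulative share of regions called in all 6 libraries, in percent, against the log2 fold change of reads (maltonis over untreated), for H3K9me3, for H3K27ac, and for H3K27ac with the called length as an offset. Cluster H3K27ac regions lie to the right of the rest of chromosome 19 and of all regions, with medians of 0.34, 0.06 and -0.01, and move close to them with the offset, while cluster H3K9me3 regions centre near 0.

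The H3K27ac regions named here were chosen after their values were seen. The largest rise was at 12265801 to 12268400 in cluster 1, with 103, 103 and 98 reads in untreated and 212, 243 and 251 in maltonis libraries (log2 fold change 1.26, SE 0.14, edgeR quasi-likelihood test, Benjamini-Hochberg adjusted p = 3.92e-05). Nearby, the region from 12272001 to 12278600 went from 476, 481 and 499 to 816, 1019 and 865 reads (log2 fold change 0.93, SE 0.06), while its called length grew from 2733 to 5667 bp on average. Both lay on H3K4me3 in all libraries, and with the length as an offset their log2 fold changes were 0.55 and -0.36.

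All 3 falls found without the length offset can be given. The region from 20162001 to 20164400 in cluster 2 had 177, 229 and 197 reads in untreated and 73, 94 and 71 in maltonis libraries (log2 fold change -1.30, SE 0.17, edgeR quasi-likelihood test, Benjamini-Hochberg adjusted p = 8.37e-05). It contains the shortened H3K4me3 region at 20162450 given above. The region from 37956601 to 37961400 in cluster 3 had 676, 645 and 608 reads before and 345, 385 and 389 after treatment (log2 fold change -0.74, SE 0.08, edgeR adjusted p = 2.54e-05). Both also fell with the length as an offset, by 1.16 and 0.72 on the log2 scale (adjusted p = 0.00251 and 0.00288, edgeR). The other region that fell with the offset spanned 37094001 to 37097600 in cluster 3 (log2 fold change -0.73, edgeR adjusted p = 0.00632). Without the offset its log2 fold change was -0.53, short of the criterion. The region from 53436401 to 53442600 in cluster 5, off H3K4me3, had 211 ± 49.7 and 121 ± 12.2 reads (SD for n = 3 each; log2 fold change -0.75, SE 0.19, edgeR adjusted p = 0.00629), and with the offset its adjusted p was 0.0974. None of the 3 regions that fell without the offset overlapped H3K9me3 in an untreated library. Of these, those in clusters 2 and 3 each did in 1 maltonis library. How often other H3K27ac regions did so was not counted.

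Only 1 H3K27ac region of the clusters was specific to a condition. It spanned 12169001 to 12171200 in cluster 1, had 67, 76 and 55 reads in the maltonis libraries and was called in 0 untreated ones, off both other marks. That is 1 of 210 (0.476%) for maltonis only, beside 1.65% of all regions, and 0 of 210 for untreated only, beside 6.04% of all and 3.79% in the rest of the chromosome.

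Finally, H3K9me3 peaks were tested for overlap with the active marks. Of cluster peaks, 13.8% ± 1.43 overlapped H3K4me3 in untreated and 14.3% ± 1.81 in maltonis libraries (exact permutation test, p = 0.8; SD for n = 3 each). Outside the clusters, 25.1% ± 0.346 did before and 30.0% ± 1.98 after treatment, and the conditions were apart (exact permutation test, p = 0.1; SD for n = 3 each). Overlap with H3K27ac was 19.1% ± 1.07 and 18.8% ± 1.74 in the clusters, and 59.3% ± 1.11 and 60.9% ± 1.33 in the rest, with the conditions overlapping in both (exact permutation test, p = 0.8 and 0.3; SD for n = 3 each). In each of the 6 libraries the cluster value lay below the value of the rest for both active marks, a difference that was not tested. Both active marks also covered less of the clusters than of the rest. Mean cover was 5.66% against 20.4% for H3K27ac and 2.35% against 2.91% for H3K4me3 (6 libraries of each mark). The overlaps were not adjusted for this.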

How the data were processed

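H3K9me3, H3K4me3 and H3K27ac were profiled by ChIP-seq in NB4 cells, in 3 untreated and 3 maltonis libraries per mark, and libraries were grouped by their labels. The submitters' processing notes name BWA, SAMtools, MACS2, SICER and hg19, and the study's methods name epic2 and MACS2, without versions. Peaks had been called per library. In the deposited H3K9me3 and H3K27ac lists the authors give, for each called region, a count of reads and an island score of the caller. In the deposited H3K4me3 lists they give a score, a fold enrichment over local background, and -log10 p and -log10 q values. Reads in peaks were 2595814 to 3366296 per H3K9me3 library and 17974940 to 20773316 per H3K27ac library. Library totals were not used here, and these counts depend on the peaks called, so they do not measure depth. Whether depth moved the number, width or cover of peaks was not tested.

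Covered bases, peak numbers, widths and shares of reads were computed per library inside the clusters and in the rest of chromosome 19, from its first to its last peak without the longest peak-free stretch, which holds the centromere. Conditions were compared by two-sided exact permutation tests, and clusters with the rest by exact sign-flip tests. Counts were summed per merged region and tested over all regions called in all 6 libraries with edgeR 4.0.16 (TMM, quasi-likelihood, Benjamini-Hochberg) in R 4.3.3, with an adjusted p of at most 0.01 and an absolute log2 fold change of at least 0.58 as criteria. A peak counted as overlapping another mark from 1 bp on, against regions called in at least 2 libraries of a condition. Scripts used Python 3.11.15, numpy 2.4.6, pandas 2.3.3 and matplotlib 3.10.9, and the read count test was checked on simulated data. DESeq2 1.42.0, other peak selections, borders, merging distances, a length offset, a replicate block and leaving out each library were tried as alternatives.

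Named regions are the member with most reads in each cluster, the 3 widest, any past the criteria, and up to 3 found in 1 condition only by score rank. Others are said to have been chosen after their values were seen. The clusters, members and tests were chosen with earlier results of these data known. Gene names come from RefSeq (GRCh38.p14), without coordinates, since the build differs from hg19. No sequence was printed for the same reason.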

Additional observations from a re-analysis of the deposited data

How the results depend on the processing

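Of 219 alternative values, 175 kept their direction and their side of the threshold, or a count within 1.5 times. With equal numbers of peaks per list, the difference between conditions in cluster H3K9me3 peaks was 1.333, in the share of reads -0.03703 points, and in overlap with H3K4me3 -0.4589 points. The last was -0.7695 with the strongest 75% of peaks and -0.4323 with a common lowest island score. Overlap with H3K27ac was 1.041 points when 50% of the shorter interval was required. The causes were not tested. Members found in 1 condition only numbered 1 with equal numbers of peaks and 2 with a common lowest score. Changed H3K27ac regions, 38 in all, were 3 with an offset for called length and 1 among regions of similar length. Leaving out 1 library leaves 5, which allow no exact sign-flip p below 0.0625. It gave 22.62 to 23.57 points for H3K9me3 cover in clusters minus rest. For the rise of H3K9me3 from H3K4me3 centres to 10 kb it gave 13.79 to 16.06 points, and -6.06 to -5.537 in the rest. Between conditions it gave -2.437 to -0.4319 points for cluster H3K9me3 cover (apart only without untreated replicate 1), 0.03336 to 0.09645 for its share of reads (apart only without untreated replicate 3) and 533.3 to 933.3 bp for its median width (apart without untreated replicate 3 or maltonis replicate 3). It gave 0.09583 to 0.3133 for H3K27ac cover (apart only without untreated replicate 2), -0.298 to 1.492 for overlap with H3K4me3 (below 0 without untreated replicate 1, -0.06567, or maltonis replicate 2), -0.7819 to 0.7364 for overlap with H3K27ac (above 0 without untreated replicate 3, 0.3482, or maltonis replicate 3) and 6 to 15 members in 1 condition only. For H3K9me3 and H3K27ac, deviations of untreated and maltonis libraries hardly correlated, whatever their replicate numbers (correlations from -0.034 to 0.032). That cannot show how the cultures were prepared, and H3K4me3 was not examined. With the replicate block, where 3 pairs allow no exact p below 0.25, cover in clusters minus rest was 23 and the H3K9me3 share of reads differed by 0.06545 in the same direction in 3 of 3 pairs.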
